A study of Mus musculus with 2 samples.

Results

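The simple-epithelium keratins Krt7, Krt8, Krt18 and Krt19 were read in RNA sequencing of a mouse hair follicle stem cell line. These 4 genes were taken by symbol from a table of 22383 genes, which also held 28 other keratin genes. The 2 libraries came from puromycin-selected derivatives of iHFSC2, an immortalized line, with 1 stable line each. The first was made with a lentivirus of empty vector, and the second with one that encodes shcircSmad5, a hairpin directed at circSmad5 (a circular transcript of Smad5). The level of circSmad5 itself was not analysed here, so the knockdown has no check. Puromycin was added on day 4 after infection and stable lines were used from day 15. Where 2 values stand side by side below, the empty vector library comes first and the shcircSmad5 library second. Each group was 1 library, no control hairpin was included, and separate selection of the lines cannot be told apart from the hairpin. No difference below has a replicate check, and all intervals are 95% counting intervals. The members were chosen with results of this comparison known, so their values are a description and carry no test.

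Keratins are the intermediate filament proteins of epithelial cells. A filament is built from pairs of 1 acidic type I and 1 basic type II protein, so an epithelial cell needs a member of each type. Krt8 (type II) with Krt18 (type I) is the pair typical of single-layered epithelia such as gut, liver and gland ducts, where Krt7 (type II) and Krt19 (type I) join it in many ducts. The basal layer of the epidermis and the outer layer of the follicle use Krt5 and Krt14 in their place. In skin, Krt8 and Krt18 are known from Merkel cells and sweat glands, and Krt19 from the follicle bulge.

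The promoter sequences of Krt7 and Krt8, the members with a higher level with shcircSmad5, are shown with that of Krt18, the usual partner of Krt8, because the 3 genes lie on the same chromosome and differ in their readout. They are the 250 bases before the RefSeq start (build GRCm38.p6), 5′ to 3′ on the strand of the gene. Krt7 is chr15:101412153-101412402 (plus strand), Krt8 is chr15:102004343-102004592 (minus strand), and Krt18 is chr15:102027966-102028215 (plus strand). Of the 4 members, 3 were matched in the RefSeq table, and the fourth, Krt19, is named only.
Krt7: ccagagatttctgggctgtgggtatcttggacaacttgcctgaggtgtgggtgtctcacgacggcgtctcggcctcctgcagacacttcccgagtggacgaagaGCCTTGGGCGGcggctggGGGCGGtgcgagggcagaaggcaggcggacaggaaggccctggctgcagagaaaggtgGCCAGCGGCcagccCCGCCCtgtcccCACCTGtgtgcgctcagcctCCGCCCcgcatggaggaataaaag
Krt8: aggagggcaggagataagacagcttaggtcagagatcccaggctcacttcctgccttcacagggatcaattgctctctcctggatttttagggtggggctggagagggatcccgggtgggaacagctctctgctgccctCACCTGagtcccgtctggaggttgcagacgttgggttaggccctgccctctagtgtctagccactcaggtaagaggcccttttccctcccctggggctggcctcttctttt
Krt18: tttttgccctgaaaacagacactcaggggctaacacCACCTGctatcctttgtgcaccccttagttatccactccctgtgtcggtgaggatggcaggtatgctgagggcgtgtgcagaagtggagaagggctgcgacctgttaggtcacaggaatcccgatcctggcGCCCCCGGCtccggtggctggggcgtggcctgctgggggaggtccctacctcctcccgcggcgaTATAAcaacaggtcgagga
Capitals mark letters that matched 1 of 6 motifs, searched on both strands and chosen with the sequences in view: TATAA (TATA box), GGGCGG (GC box), CACCTG (an E-box), TGANTCA (AP-1 site), GCCNNNGGC (AP-2 site) and AACCNGTT (Grainyhead site). The E-box letters were in each of the 3 windows. They are in 17.2% of 32851 RefSeq promoter windows of that length. Krt7 held 4 GC boxes and 2 AP-2 matches, 1 of which overlaps a GC box. Krt18 held 1 AP-2 match. GC boxes are in 32.7% of windows and AP-2 letters in 13.7%. TATAA was found in Krt18 alone, 19 bases before the start (22.8% of windows). AP-1 and Grainyhead letters were in none of the 3 windows, against 6.75% and 1.79% of all windows. Guanine and cytosine made up 66.0%, 58.0% and 60.4% of the Krt7, Krt8 and Krt18 windows, with a median of 52.4% over all windows. The GENCODE models start farther upstream, inside these windows for Krt8 and Krt18 and before the window for Krt7, so the distances hold for the RefSeq start.

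Both type II members were higher with shcircSmad5, while the type I members had at most 26 counts in either library. Calls followed a rule of size: 20 or more counts in either library, a 2-fold or larger ratio of shcircSmad5 over empty vector, and a counting interval clear of 1. Krt8 and Krt7 were called higher, Krt19 was called neither, and Krt18, at 0 counts, was below the count minimum. By the same rule 8.43% of all 13596 genes with that many counts were called higher, and 6.24% lower, or 14.7% in either direction. Among 11605 protein-coding genes 4.61% were called higher and 6.38% lower. As the members were picked from this contrast, nothing is read from these shares.

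Krt8 (ENSMUSG00000049382) lies on the minus strand of chromosome 15, from 101996698 to 102004482 in GRCm38, with 9 exons. It had 493 counts with empty vector and 1437 with shcircSmad5. As CPM, counts scaled to library size by the TMM method of edgeR, the levels were 12.8 and 36.6, or 2.85-fold higher with shcircSmad5 (2.58 to 3.17). On the log2 scale the ratio was 1.51 (1.36 to 1.66). Of the 13596 genes, 637 had a ratio at least as high. Among the 3700 genes with a mean CPM within 2-fold of that of Krt8, 72 were called higher and 131 lower.

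Krt7 (ENSMUSG00000023039), the second type II member, lies on the plus strand of chromosome 15, from 101411043 to 101430313, with 9 exons in its longest coding transcript. It had 306 counts with empty vector and 796 with shcircSmad5, or 7.96 and 20.3 CPM. It was 2.55-fold higher with shcircSmad5 (2.23 to 2.92), a log2 ratio of 1.35 (1.16 to 1.54). On the log2(FPKM + 1) scale, which shrinks low levels, the difference was 0.90 and no longer reached 2-fold. Among the 2967 genes with a mean CPM within 2-fold of that of Krt7, 119 were called higher and 144 lower. The intervals of Krt7 and Krt8 overlap. Krt8 made up 61.7% (58.2 to 65.1, exact binomial) of the counts of this pair of genes with empty vector and 64.4% (62.3 to 66.3) with shcircSmad5, and these intervals overlap.

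Krt18 (ENSMUSG00000023043), the type I partner of Krt8 in simple epithelia, lies on the plus strand of chromosome 15 from 102028180 to 102032027, with 7 exons, and starts 23.7 kb from Krt8. It had 0 counts in both libraries. A count of 0 allows up to 3 counts, or 0.0781 CPM with empty vector and 0.0765 with shcircSmad5. In the deposited values scaled by gene length and library total (FPKM), that limit is 0.0532 and 0.0544. The measured FPKM of Krt8, taken without its counting interval, was 120.6-fold and 351.5-fold above that limit. No fold change between the libraries can be given for Krt18.

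Sequence that the members share with other genes was counted in the GENCODE M21 transcripts. Of the 50-base words of the Krt18 transcript, 99.3% occurred in no other gene's transcript on either strand, and no 100-base word was shared. No exon of another annotated gene overlapped its exons. Copies outside annotated transcripts and the strand setting of the counting were not tested. Krt8 is the member with a close copy: 26.9% of its 50-base words also occur in the pseudogene Krt8-ps, which had 0 counts in both libraries. Its counts are uncertain to that extent where reads that match several places were dropped or shared. Also, 5.16% of its exonic bases lie under the noncoding gene Gm36026 on the opposite strand, which had 7 and 3 counts. For Krt7, 1.09% of the exonic bases lie under the opposite-strand gene Gm671, which was absent from the table.

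Krt19 (ENSMUSG00000020911) is a type I keratin without the tail domain of other keratins. It lies on the minus strand of chromosome 11 from 100140810 to 100148665, with 6 exons. It had 26 counts with empty vector and 21 with shcircSmad5, or 0.677 and 0.535 CPM. The log2 ratio of -0.34 has an interval from -1.24 to 0.55, so no difference was detectable at this depth. The interval lies below that of Krt8 and of Krt7. Its 50-base words occurred in no other gene. At such levels calls are frequent: of 1954 genes within 2-fold of its mean CPM, 592 were called higher and 312 lower.

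**Figure D1:**
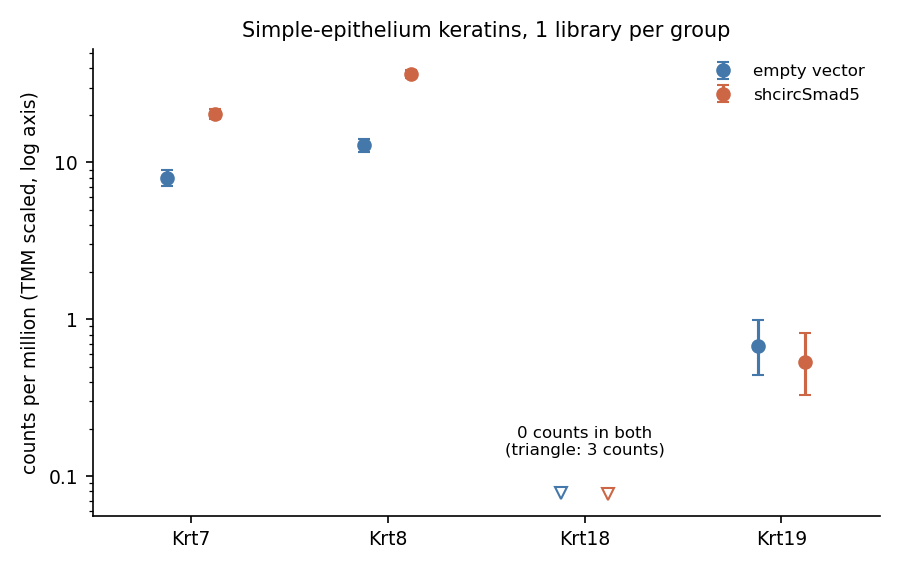
CPM (vertical log axis) of the 4 members in the empty vector (blue) and shcircSmad5 (orange) libraries, 1 point per library with its 95% counting interval. Krt8 goes from 12.8 to 36.6 and Krt7 from 7.96 to 20.3, the Krt19 intervals overlap, and the triangles of Krt18 mark the limit of 3 counts.

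Per length, the order of the members was Krt8, Krt7, Krt19 and then Krt18 in both libraries. Krt8 had 6.41 FPKM with empty vector and 19.1 with shcircSmad5. Krt7 had 1.11 and 2.94 FPKM, and Krt19 had 0.357 and 0.295. Neighbours in this order differed beyond counting error. The step from Krt8 to Krt7 depends on the length taken for Krt7. The deposited FPKM of Krt7 divides by 7049 bases, the union of the exons of 5 transcripts, while its longest coding transcript has 4094. Krt8 was 5.80-fold and 6.50-fold above Krt7 in the deposited FPKM of the empty vector and shcircSmad5 libraries, and 3.37-fold and 3.77-fold per base of the longest coding transcript. Both type II members together had 7.52 and 22.1 FPKM against 0.357 and 0.295 for both type I members. The ratio of type II to type I was 21.1 (14.3 to 32.4) with empty vector and 74.8 (48.8 to 121) with shcircSmad5. This ratio rests on the 26 and 21 counts of Krt19, as Krt18 is at 0. The same ratio over all 32 keratin genes was 1.06 and 1.02. Among the type I keratins, the most abundant were Krt14 (2361 and 3359 FPKM) and the stress keratin Krt16 (594 and 555 FPKM).

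The members were a small share of the keratin messages. They took 825 of 512510 keratin counts in the empty vector library, 0.161% (0.150 to 0.172, exact binomial), and 2254 of 612839 with shcircSmad5, 0.368% (0.353 to 0.383). By FPKM, Krt5 stood 373-fold above Krt8 with empty vector and 139-fold with shcircSmad5. Krt8 ranked 8 of 32 keratin genes by FPKM with empty vector and 7 with shcircSmad5, and Krt7 ranked 13 and 8. In the shcircSmad5 library Krt8 stood just below Krt80, a type II keratin of many epithelia (17.4 and 20.5 FPKM), and above Krt17, the follicle and stress keratin (193 and 2.25 FPKM). Krt8 exceeded 71.8% of all genes in the table with empty vector and 87.8% with shcircSmad5. Krt7 exceeded 53.8% and 61.6%.

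**Figure D2:**
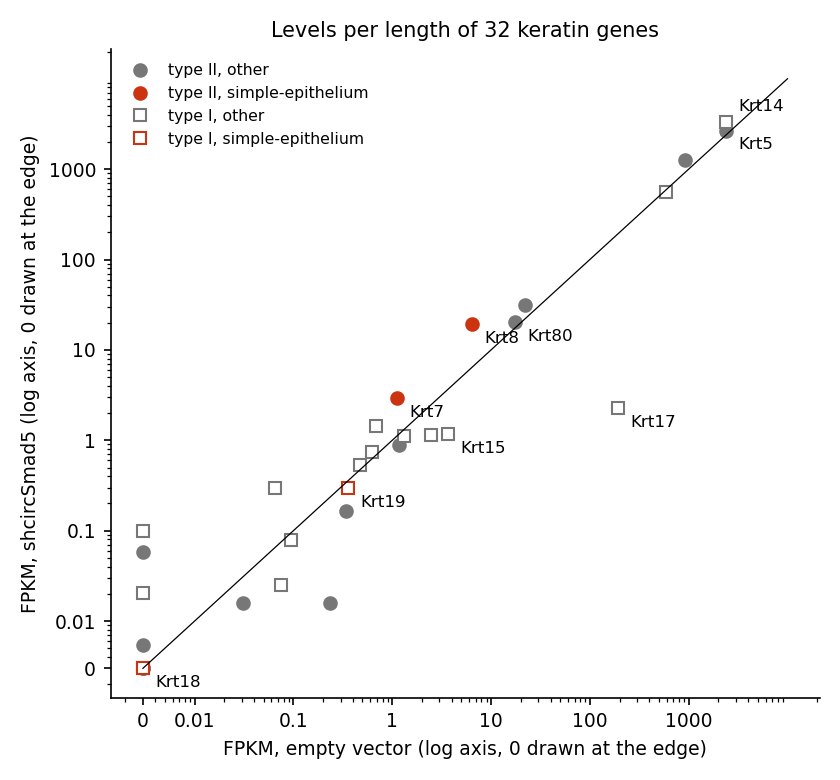
FPKM in the empty vector library (horizontal) and the shcircSmad5 library (vertical), both on log axes with 0 drawn at the edge, for 32 keratin genes, circles for type II, squares for type I, red for the simple-epithelium members. Krt8 and Krt7 lie above the line of equal values, Krt19 lies near it, Krt18 is at 0 in both, and Krt5 and Krt14 stand near the top of the line.

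Among the 19 keratin genes with at least 20 counts, Krt8 and Krt7 had the highest ratios, and the third keratin called higher was the hair keratin Krt32 (46 and 94 counts, log2 ratio 1.00, interval 0.48 to 1.54). None of the other 7 type II keratins with enough counts was called higher, and from so few genes nothing is read. By the size rule 8.43% of all genes were called higher and 6.24% lower. The epidermal pair Krt5 and Krt14 had log2 ratios of 0.09 and 0.45. The wound-induced keratins Krt6a, Krt6b and Krt16 had 0.41, 0.45 and -0.16. Krt10, the keratin of the suprabasal epidermis, had 0.20 on 52 and 61 counts. Krt80, Krt36 and Krt42 had 0.17, 0.10 and -0.29, and Krt78 had -0.48. The 5 keratins called lower were Krt17 (-6.48), Krt75 (-3.94, -7.05 to -1.96, on 30 and 2 counts), the bulge keratin Krt15 (-1.71), Krt13 of internal stratified epithelia (-1.20) and Krt90 (-1.12). The median over the 16 keratins that are not members was -0.03, against -0.02 over all 13596 genes. Krt23, another keratin of simple epithelia, had 4 and 18 counts and stayed under the count minimum. Krt20 was absent from the table.

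**Figure D3:**
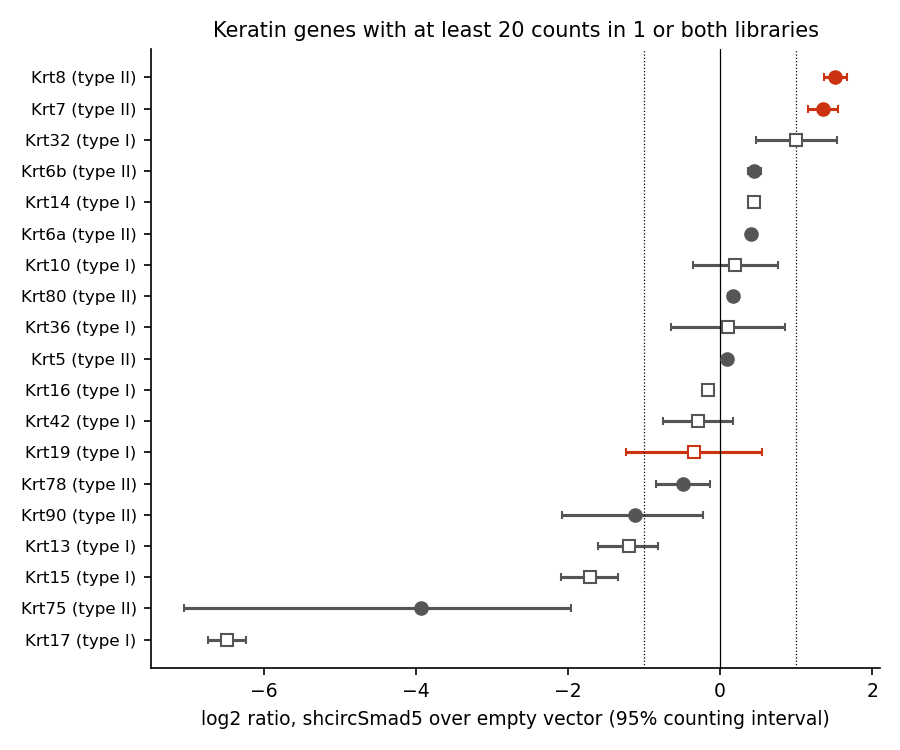
Log2 ratio of shcircSmad5 over empty vector with 95% counting intervals (horizontal) for the 19 keratin genes with at least 20 counts, circles for type II, squares for type I, red for members, dotted lines at 2-fold. Krt8 (1.51) and Krt7 (1.35) are at the top, Krt19 (-0.34) crosses 0, and Krt17 (-6.48) is lowest.

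None of the measured genes around Krt7 and Krt8 was called higher with them, where 8.43% of all genes were called higher and 6.24% lower. The nearest gene with at least 20 counts to Krt8 on the side of lower coordinates was Krt78, 42.4 kb away, with 159 and 116 counts (log2 ratio -0.48, -0.84 to -0.13). On the other side, past Krt18, it was the translation initiation factor gene Eif4b, 69.3 kb away, with 0.26 (0.24 to 0.29). Krt7 had the noncoding gene Gm35853 at 5.21 kb (92 and 141 counts, 0.59, 0.20 to 0.98) and Krt90 at 122 kb (34 and 16 counts). Of 23 such genes within 500 kb of Krt8, none was called higher and 2 were called lower, Krt75 and Krt90. Of 12 within 500 kb of Krt7, none was called higher and the same 2 keratins were called lower. Both windows also hold Krt5, Krt6a and Krt6b, so they are not separate observations. Near the level of Krt8, 72 of 3700 genes were called higher, so nothing is read from the absence of such calls here. Chromosome 15 as a whole had a median log2 ratio of 0.20 over 520 genes, with 57 called higher and 24 lower. Set against that median, Krt8 and Krt7 had log2 ratios of 1.32 and 1.15.

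Krt19 lies in the type I cluster of chromosome 11. Its nearest neighbours were Krt15, 4.88 kb away and called lower (253 and 79 counts), and Krt14, 54.5 kb away (162982 and 226645 counts). Of 23 genes within 500 kb, 4 were called higher and 4 lower, against 14.7% of all genes called in either direction. Those called higher had at most 186 counts in either library. Chromosome 11 as a whole had a median log2 ratio of 0.10 over 1035 genes, with 104 called higher and 48 lower.

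**Figure D4:**
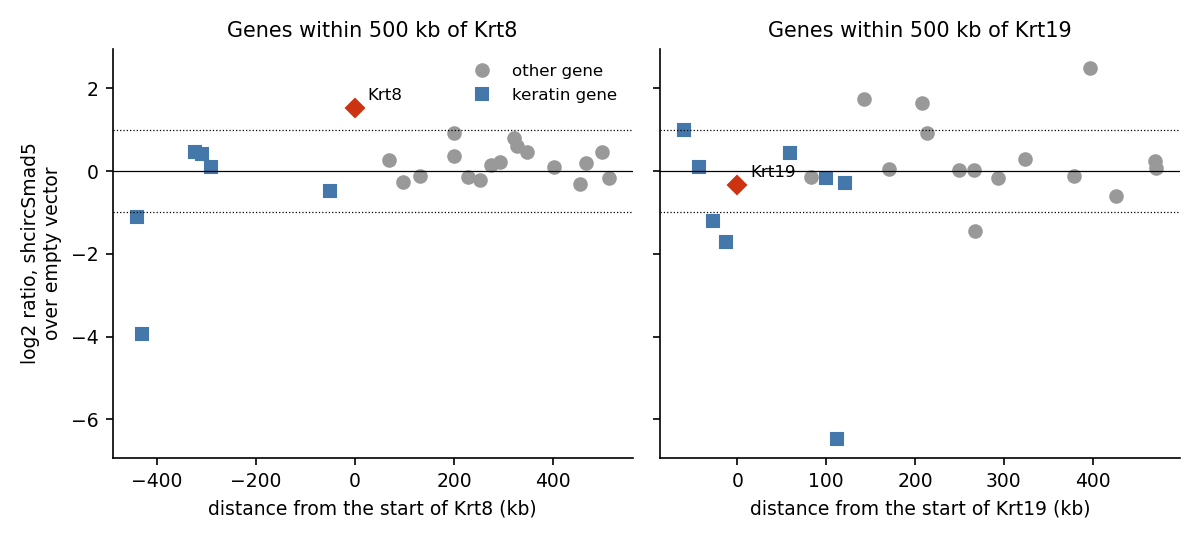
Log2 ratio of shcircSmad5 over empty vector (vertical) for genes with at least 20 counts within 500 kb of Krt8 (left) and Krt19 (right), by distance between starts in kb along increasing coordinate, with keratin genes as squares and dotted lines at 2-fold. Krt8 at 1.51 stands above its 23 neighbours, while Krt19 at -0.34 has neighbours on both sides of the 2-fold lines.

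No gene on the list of keratin filament linkers was called. Over all genes with at least 20 counts, 8.43% were called higher and 6.24% lower. Of the 3700 genes near the level of Krt8, 72 were called higher and 131 lower. Nothing is therefore read from the absence of calls in these lists. Of 19 linker and binding genes, 18 had at least 20 counts with a median log2 ratio of 0.06. Plectin (Plec), which ties keratins to hemidesmosomes, had 0.08. Desmoplakin (Dsp), which ties them to desmosomes, had 0.11, and plakoglobin (Jup), its partner there, had 0.02. None of 12 kinase, protease and ligase genes that act on keratins was called (median -0.14). The MAP kinase genes Mapk3 and Mapk14, among the most abundant of them, had log2 ratios of -0.88 and -0.54. Among 13 other intermediate filament genes, 6 had at least 20 counts. Nestin (Nes, 95 and 24 counts) and internexin (Ina, 57 and 10 counts) were called lower, 4.04-fold and 5.82-fold. The list's median was -0.04 and turned positive under 3 other scalings. Vimentin (Vim), the filament of mesenchymal cells, had 9 and 8 counts.

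Of 25 listed transcription and splicing factors of simple epithelia, 18 had at least 20 counts, 1 was called higher and 2 lower, with a median of -0.22. Those counts are near the share over all genes, of which 14.7% were called in either direction. The ETS factor Ehf had 65 and 275 counts and was 4.14-fold higher (3.15 to 5.52). The endodermal factor Gata6 had 222 and 111 counts (2.04-fold lower), and the AP-1 subunit Jun had 4548 and 2219 (2.09-fold lower). Of 9 measured factors of stratified epithelia, the differentiation factor Zfp750 (4.76-fold) and Prdm1 (2.28-fold), a repressor known from sebaceous and inner root sheath cells, were called higher and none was called lower (median 0.24). Klf4 (-0.84), Trp63 (-0.36), Sox15 (-0.33) and Hes1 (-0.06) were the ones below 0. Among all genes 8.43% were called higher and 6.24% lower, and a list of 9 genes is short. Of 21 surface and junction genes typical of simple epithelia, 15 had at least 20 counts (median -0.12). The tight junction gene Tjp3 was called higher on 22 and 49 counts, and Marveld3 lower on 85 and 3 counts, near those shares over all genes. Epcam, an adhesion molecule of simple epithelia chosen after its values were seen, had 2091 and 1193 counts, a log2 ratio of -0.84 (-0.94 to -0.74). The genes of that list above 0 were Tjp3, Lgals4 (0.75), St14 (0.35), Spint2 (0.27), Ezr (0.26) and Lsr (0.08).

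The label of a hair follicle stem cell was checked against its markers. Of 13 basal and bulge markers, 12 were in the table and 10 had at least 20 counts. Krt5 and Krt14 were abundant in both libraries, Krt15 was called lower, and the median was -0.12. The follicle stem cell factor Sox9 had 8829 and 5301 counts, Nfatc1 had 2300 and 2077, and Tcf7l1 had 483 and 498. The bulge marker Cd34 had 0 counts in both and the bulge factor Lhx2 had 4 and 5, while Lgr5 was absent from the table.

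Among marker lists of other cells that carry these keratins, the mesothelial list was the one with genes called higher. Of the members, Krt7 and Krt8 were called higher, Krt19 was called neither and Krt18 had 0 counts. Of 7 mesothelial markers, 4 were in the table, and all 3 with at least 20 counts were called higher (median 1.41). Over all genes 8.43% were called higher, and a list of 3 genes is short. Mesothelin (Msln) had 1464 and 3977 counts, 2.66-fold higher, the uroplakin Upk1b had 1757 and 4386 (2.45-fold), and Lrrn4 had 4 and 28. The list's summed level was 84.1 CPM with empty vector and 214 with shcircSmad5. Upk3b had 5 and 6 counts, and Wt1 was absent from the table. The part of such cells in the difference of Krt7 and Krt8 was not tested.

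Of 6 Merkel cell markers in the table, 2 had at least 20 counts, and 1 of them, the factor Isl1, was called lower (442 and 109 counts). The list summed to 14.6 and 4.87 CPM, with Atoh1 and Sox2, which define these cells, absent from the table. None of the 3 gland luminal markers with enough counts was called. Aqp5, Foxc1 and Slc12a2 had log2 ratios of -0.08, -0.72 and -0.27, the list summed to 538 and 415 CPM, and the luminal factors Foxa1 and Elf5 had at most 2 counts in either library. Of the trophoblast list, Eomes was called lower (114 and 41 counts), and the list summed to 18.5 and 13.5 CPM. Fibroblast, melanocyte, endothelial and immune lists summed to at most 66.0 CPM in either library, and none of their genes was called higher. Called lower were 2 of 3 fibroblast genes with at least 20 counts (Pdgfra, 161 and 62 counts, and Twist2, 52 and 15). So were 3 of 3 endothelial genes (Pecam1, 81 and 27, Kdr, 33 and 4, and Vwf, 33 and 6), 1 of 2 immune genes (Csf1r, 36 and 8) and 0 of 2 melanocyte genes. Over all genes 6.24% were called lower, and near the low level of Krt19 312 of 1954. The third fibroblast gene, Fbln1, had 1718 and 2507 counts (log2 ratio 0.52) and made up most of its list's sum (44.7 and 63.9 CPM). The fibroblast markers Col1a1, Dcn, Lum and Dpt, the endothelial marker Cdh5 and the immune marker Itgam were at 0 in both. In bulk RNA, fewer cells of a type and less RNA per cell cannot be told apart.

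**Figure D5:**
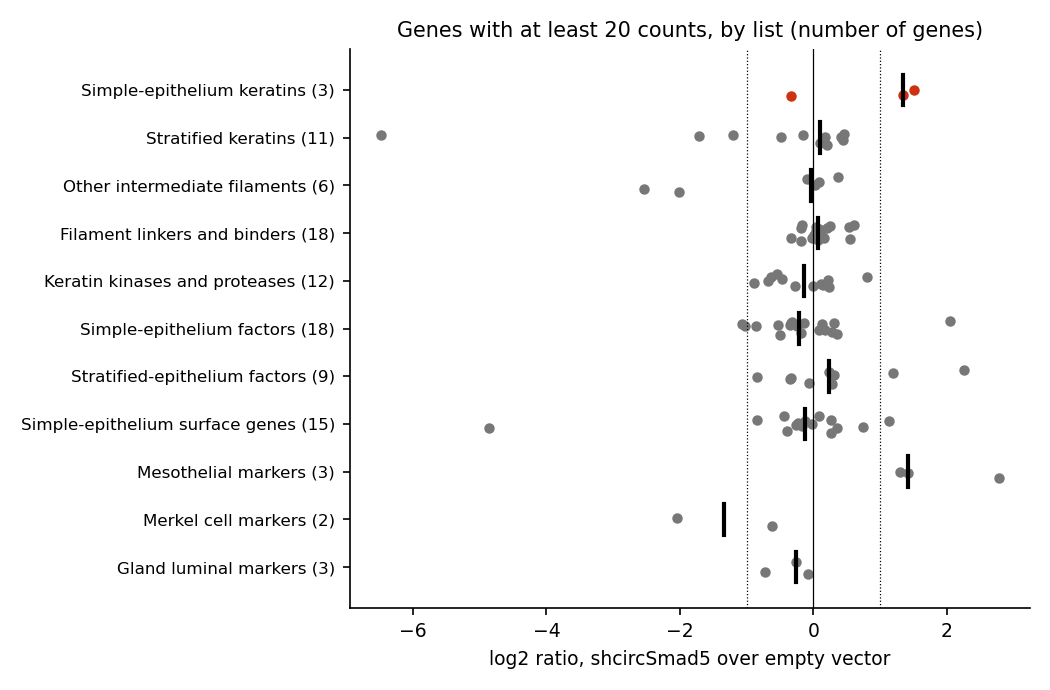
Log2 ratio of shcircSmad5 over empty vector (horizontal) for genes with at least 20 counts, by list, 1 point per gene with the list's median as a bar and dotted lines at 2-fold. The members (red) are Krt8 and Krt7 above 2-fold and Krt19 at -0.34, the 18 filament linkers lie within the 2-fold lines, and the 3 mesothelial markers lie above them.

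By ratio and level, the protein-coding genes most like Krt8 were Sh3d21 (261 and 757 counts) and the Mediator subunit gene Med7 (511 and 1482 counts), within 0.01 of its log2 ratio. For Krt7, Slc45a4 (322 and 831 counts) lay within 0.02 of its log2 ratio. With 1 library per group, this likeness is that of a single ratio. Of 3547 candidates, 6 lay within 0.1 of Krt8, and of 2766, 18 lay within 0.1 of Krt7.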

How the data were processed

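RNA was measured in 1 empty vector and 1 shcircSmad5 library of iHFSC2 cells, from ribosomal RNA-depleted total RNA with a strand-keeping kit, per the labels' protocols. The authors deposited read counts per gene, which are whole numbers and not normalized, and FPKM values, per the file headers. HISAT2, HTSeq 0.13.5, GRCm38 and GRCh38 are named in the submitters' processing notes. The annotation and the strand setting of the counting are not given in the sources used. The deposited FPKM equalled counts over total and a whole gene length (tolerance 0.001 bases) for 100.0% of genes above 0. Totals were 39261010 and 38382081 counts, and 0 value columns were unmatched.

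Counts were scaled by TMM (edgeR 4.0.16, R 4.3.3). Each ratio has a 95% interval from the exact binomial (Clopper-Pearson) limits of how its counts divide between libraries. Without molecular identifiers PCR copies are counted too, so intervals and floors cover counting error alone. There was no test. A count of 0 was set to 3 counts in list medians. Positions came from GENCODE M21.

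Members, lists and rules were chosen with earlier results of these data known. Named are the members, keratins with at least 20 counts, nearest neighbours on either side, the 2 genes of likest ratio (protein-coding, at least 100 counts, CPM within 2-fold), and, per list, up to 4 called genes with the most counts, or up to 3 where none was called. Fibroblast, melanocyte, endothelial and immune lists are summarized. Some genes that this rule names are not reported here. Markers named beyond this rule, present or absent, were chosen after their values were seen. Alternatives were size factors of DESeq2 1.42.0, upper quartile or total count scaling, totals without mitochondrial and the 20 most abundant genes, FPKM with pseudocounts 0.1 and 1, a prior count of 2, chromosome centring, and other limits. The length of the longest coding transcript was added after seeing the data.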

Additional observations from a re-analysis of the deposited data

How the results depend on the processing

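Krt8 and Krt7 stayed higher in the shcircSmad5 library, and Krt19 stayed below 0, under each of 8 other settings. The other scalings moved every gene by only 0.012 to 0.077 on the log2 scale, so they could not change these signs. The sign of Krt19 stays undecided, as its interval (-1.24 to 0.55) spans 0. The log2 ratio of Krt7 was 0.90 with FPKM + 1 and 1.15 with its chromosome's median taken off, and that of Krt8 was 1.32 with its chromosome's median taken off. Krt18 gave no ratio under any setting. The type II to type I ratio was 3.10 with empty vector and 9.97 with shcircSmad5 without Krt8. It has no value without Krt19, since Krt18 is at 0. The count of genes called higher was 1731 with no count minimum, 439 with a minimum of 100, 1892 at 1.5-fold, 591 at 3-fold and 535 among protein-coding genes, against 1146. The count called lower was 463 with a minimum of 100, 1753 at 1.5-fold and 422 at 3-fold, against 848. Of 62 list medians under other settings, 8 changed sign. The stratified keratin median was -0.11 with chromosomes centred and -0.034 with a minimum of 100 counts. The hair keratin median was -0.29 with no minimum, and had no value with a minimum of 100. The median of other intermediate filaments was 0.024 with total counts, 0.026 with upper quartile scaling, 0.038 without the most abundant genes, 0.080 with no minimum and 0.021 with a minimum of 100. The cause was not tested. Depth limits Krt18 and Krt19. No paired analysis was possible because each group has 1 library.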

Other observations

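Outside the lists, 4 genes near Krt19 that are not keratins were called in the comparison, chosen here after their values were seen. Of the 15 genes with at least 20 counts there that are not keratins, 3 were called higher and 1 lower. Over all genes the shares were 8.43% and 6.24%. The collagen chaperone gene Fkbp10, 267 kb from Krt19, had 1577 counts with empty vector and 589 with shcircSmad5 and was called lower. Hap1, a partner of huntingtin, had 58 and 186 counts and was called higher. Ttc25, a gene of motile cilia, had 4 and 23 counts and was called higher, as was the noncoding gene Gm12349 with 7 and 24. Among keratins under the count minimum, Krt31 of the hair shaft had 0 and 6 counts, and Krt39 had 6 and 5.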
